A study of Rattus norvegicus with 2 samples.

Results

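Microtubule genes were compared between synaptosomes and whole tissue of the adult rat hippocampus. They comprised 10 named members, the tubulins Tuba1a, Tubb2a, Tubb3 and Tubb5, the microtubule-associated proteins Map1a, Map1b, Map2 and Mapt, and the stathmins Stmn1 and Stmn2. Members were taken from the platform's annotation: a probe set counted if its single gene symbol was one of these 10. This gave 16 probe sets for 6 members (Tubb5, Map1a, Map1b, Map2, Mapt and Stmn1), out of 7006 probe sets with 1 gene symbol among 8740 non-control probe sets. Tuba1a was listed only on 2 probe sets shared with other α-tubulin genes. Tubb2a, Tubb3 and Stmn2 had no probe set by this rule and were not analysed here.

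The samples were RNA of synaptosomes prepared biochemically from hippocampi, which are pinched-off nerve endings of both sides of the synapse, and RNA of rat hippocampus without fractionation. Both came from Sprague Dawley rats at postnatal day 70, and the labels list no treatment and do not give the number of animals. Each was measured on 1 oligonucleotide array, whose control probe sets carry Affymetrix names, so no test between them was possible, every value is a single measurement, and the number of arrays limits the precision. The array signal of a gene is relative to the other RNAs of the same sample, so that fewer cells or processes of a type and less RNA in each cannot be told apart.

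Microtubules are polymers of α- and β-tubulin dimers and serve as the tracks of transport along axons and dendrites. MAP2 is found mainly in dendrites and cell bodies and tau, the product of Mapt, mainly in axons. Both stabilise microtubules through related repeat domains. The mRNA of Map2 is known for its transport into dendrites, and tau mRNA has been found in axons of cultured neurons. MAP1B is the form of developing neurons and MAP1A that of mature ones, while stathmins bind tubulin dimers and favour disassembly.

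No difference between the mRNAs of dendritic Map2 and axonal Mapt was detectable against the spread between probe sets. The brightest probe set of each was about 1.62-fold higher there than in the whole hippocampus, with log2 ratios of 0.69 for Map2 and 0.70 for Mapt, a difference of -0.0036, which other processing choices extended to -0.47. Map1a was 3.66-fold higher. The tubulin Tubb5 was 1.26-fold lower and the stathmin Stmn1 1.61-fold lower. Of these 5 genes 1 lay past 2-fold, where 33.4% of all 2735 filtered genes did. With 1 array a sample, the error was gauged from genes read by several probe sets: within a gene their log2 ratios had a standard deviation (SD) of 0.90, pooled over 658 genes. Only the ratio of Map1a was larger than this SD.

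A log2 ratio here is the synaptosome signal minus the hippocampus signal on the log2 scale, after signals under a floor of 846 were set to it and the median over filtered probe sets, -0.17, was subtracted. A fold is the same value written on the linear scale, which makes a fold 1.13 times the quotient of the printed signals where a gene was higher and divides it by the same factor where it was lower. The filter kept probe sets whose geometric mean signal was 1078 or more, 4370 in all. Of the 16 member probe sets 11 passed, for Tubb5, Map1a, Map2, Mapt and Stmn1. None of the 3 of Map1b passed, nor did the other one of Tubb5 and of Map1a. Signals at or below 0 made up 25.2% of those on the synaptosome array and 31.4% on that of the hippocampus. As a gauge of noise, the size that 95% of negative signals did not exceed was taken, 2913 in synaptosomes and 5280 in the hippocampus. It was exceeded on both arrays by 6 member probe sets.

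**Figure D1:**
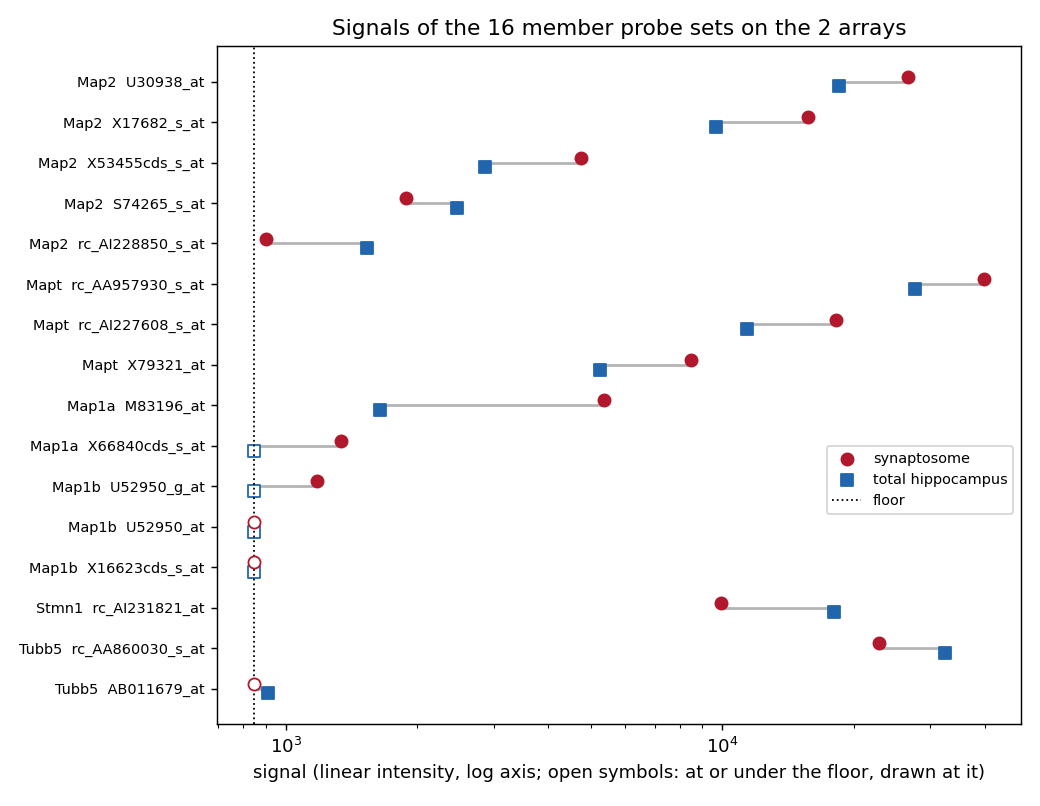
Signals of the 16 member probe sets (rows) on the synaptosome array (circles) and the total hippocampus array (squares), as linear intensity on a log axis. Open symbols lie at or under the floor of 846 (dotted line). The 3 Mapt probe sets and the 3 brightest of Map2 have the circle to the right of the square, and Stmn1 and the brighter Tubb5 probe set have it to the left.

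Map2 had 5 probe sets, all past the filter, which fell into bright ones that were higher in synaptosomes and dim ones that were lower. The brightest (U30938_at) read 26648 in synaptosomes against 18532 in the whole hippocampus, a log2 ratio of 0.69. The next (X17682_s_at) read 15691 in synaptosomes and 9687 in the hippocampus, a ratio of 0.87. Another (X53455cds_s_at) read 4743 in synaptosomes and 2861 in the hippocampus, a ratio of 0.90. These 3 had the higher signal in synaptosomes, by a similar ratio. The other probe sets ran the opposite way. One (S74265_s_at) read 1888 in synaptosomes and 2465 in the hippocampus, a ratio of -0.21, and the other (rc_AI228850_s_at) 904 in synaptosomes and 1536 in the hippocampus, a ratio of -0.59. All 4 of these dim readings lay within the size of negative signals on their array, as did the hippocampus reading of 2861. Only the 2 brightest probe sets were beyond it on both arrays. Over the 5 probe sets the ratio averaged 0.33 ± 0.69 (SD, n = 5 probe sets, which share both RNA samples and are not replicates).

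Mapt had 3 probe sets, all past the filter and all higher in synaptosomes. The brightest (rc_AA957930_s_at) read 39781 in synaptosomes and 27597 in the hippocampus, a log2 ratio of 0.70. The second (rc_AI227608_s_at) read 18266 in synaptosomes and 11417 in the hippocampus, a ratio of 0.85. The third (X79321_at) read 8481 in synaptosomes and 5242 in the hippocampus, a ratio of 0.86. The hippocampus signal of the third lay just within the size of negative signals, and the other readings of Mapt lay beyond it. The ratio averaged 0.80 ± 0.09 (SD, n = 3 probe sets), a spread well under the SD of 0.90 over genes in general.

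**Figure D2:**
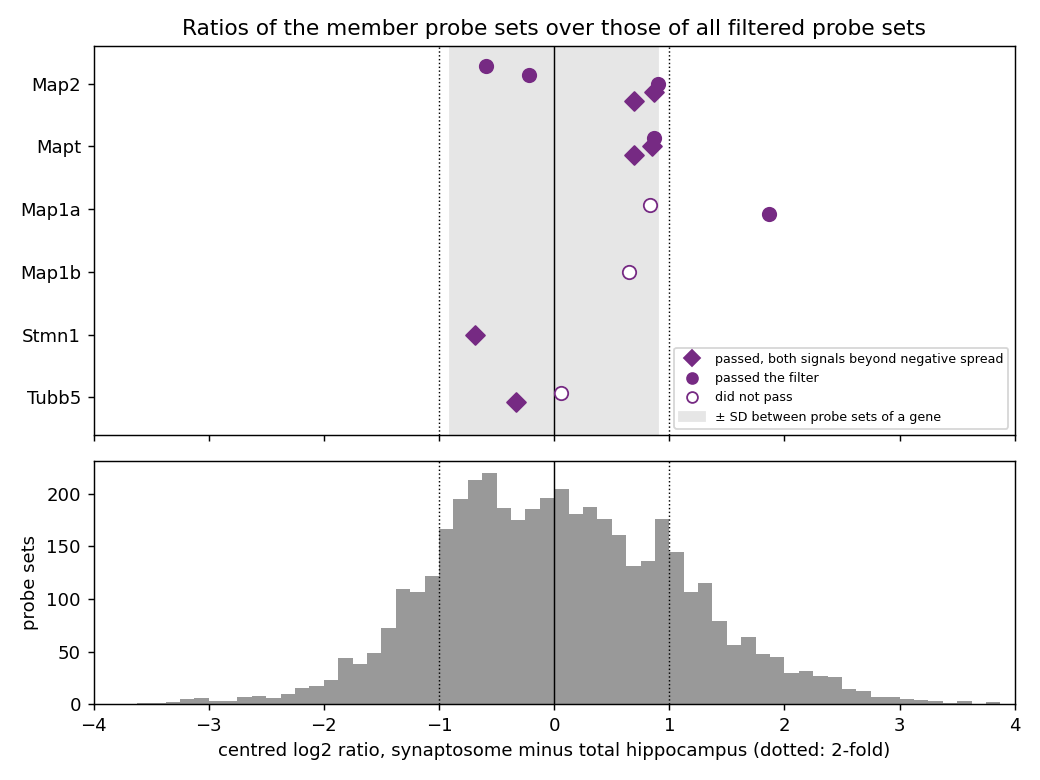
Upper panel, centred log2 ratios (synaptosome minus total hippocampus) of the 14 member probe sets above the floor on at least 1 array, by gene. Filled symbols passed the filter, diamonds had both signals beyond the size of negative signals, and the grey band is ± the pooled SD of 0.90 within genes. Lower panel, the ratios of the 4370 filtered probe sets, 1 of which lies outside the axis. The bright probe sets of Map2 and all those of Mapt stand together between 0.69 and 0.90, and 1 of Map1a stands past the dotted line of 2-fold.

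Set pairwise, the 5 Map2 and 3 Mapt probe sets gave 15 differences of log2 ratios, of which 9 had Map2 lower and 6 had Map2 higher. They ran from -1.46 to 0.20, and the lower end came from the 2 dim Map2 probe sets. In size, 9 of the 15 were smaller than the SD of 0.90 of a single ratio. The error of a difference of 2 ratios is larger, 1.28 with this SD. With the mean over all filtered probe sets of each gene in place of the brightest, Map2 was 0.47 lower than Mapt on the log2 scale. A difference between the dendritic and the axonal mRNA was therefore not detectable against the spread between probe sets. Among the 2735 filtered genes, ordered by ratio from the top, Mapt ranked 740 and Map2 746, so that 72.9% and 72.7% of genes had a lower ratio.

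Map1a had the highest ratio of the members, though the size of its difference rests on dim readings. Its brighter probe set (M83196_at) read 5357 in synaptosomes and 1649 in the hippocampus, a log2 ratio of 1.87, which ranked 131 from the top of the 2735 genes. The hippocampus reading lay within the size of negative signals on that array. With a higher floor, percentile 75 of all signals in place of percentile 50, it became a lower bound of 1.02. The other probe set (X66840cds_s_at) read 1338 in synaptosomes and -1242 in the hippocampus and did not pass the filter. Against the floor its log2 ratio is at least 0.83 at face value, in the same direction.

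Map1b, which belongs to growing neurons, was at or near the floor with all 3 probe sets. The brightest (U52950_g_at) read 1183 in synaptosomes and 683 in the hippocampus, under the floor. Another (U52950_at) read 319 in synaptosomes and -366 in the hippocampus, and the last (X16623cds_s_at) read -528 in synaptosomes and -565 in the hippocampus. Neither its presence nor a difference was detectable on these arrays.

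Stmn1, which binds free tubulin dimers, had 1 probe set (rc_AI231821_at), with 9948 in synaptosomes and 18050 in the hippocampus. Its log2 ratio of -0.69 was the lowest of the members, and 24.6% of filtered genes were lower still. Both readings lay beyond the size of negative signals. The ratio was smaller than the SD of 0.90, and with 1 probe set it had no second reading.

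Tubb5, a β-tubulin, was read as clearly expressed by only 1 of its 2 probe sets. The brighter (rc_AA860030_s_at) read 22819 in synaptosomes and 32312 in the hippocampus, a log2 ratio of -0.33. The other (AB011679_at) read 798 in synaptosomes, under the floor, and 913 in the hippocampus, just above it, so that it gave no usable ratio. The s in the name of the brighter one marks, on this kind of array, probes that can match more than 1 transcript, and 10 of the 16 member probe sets carry such an s or another letter. Without those, Tubb5 left the comparison, and Map2 and Mapt had ratios of 0.69 and 0.86.

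Other tubulins on the array did not share 1 direction. Of 16 further tubulin symbols listed, which include older names of the same genes, 4 had a probe set of their own, and 3 passed the filter. Tuba1b, an α-tubulin expressed in most cell types, read 65656 in synaptosomes and 114855 in the hippocampus, a log2 ratio of -0.64. Tuba4a, another α-tubulin, read 10269 in synaptosomes and 10931 in the hippocampus, a ratio of 0.08 that turns to -0.09 without centring. The β-tubulin Tubb2b read 6498 in synaptosomes and 5612 in the hippocampus, a ratio of 0.38, while its other probe set was at the floor on both arrays. Tubg1, which nucleates microtubules, did not pass. The 2 probe sets listing Tuba1a among several α-tubulin genes, which name no single gene, read 37826 and 39527 in synaptosomes against 69245 and 113610 in the hippocampus, log2 ratios of -0.70 and -1.35. These and Tuba1b had the lower signal in synaptosomes, whereas Tuba4a was nearly even and Tubb2b slightly higher.

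Set against the tubulins, both Map2 and Mapt had the higher ratio by their brightest probe sets. With the mean over its 5 probe sets, Map2 at 0.33 was above Tubb5 but below Tubb2b at 0.38. By the brightest probe sets, the log2 ratios of Map2 and Mapt were each 1.03 above that of Tubb5, the only named member tubulin with a value. Against the median of the 4 filtered tubulin genes, -0.13, both were 0.82 higher. Both differences stayed above 0 in every alternative that gave a value. Over Tubb5 the range was 0.66 to 1.03 for Map2 and 1.03 to 1.15 for Mapt. Over the 4 tubulins it was 0.46 to 0.97 for Map2 and 0.62 to 1.14 for Mapt. Centring cancels in such a difference, so leaving it out could not change one. The differences to Tubb5 moved only with quantile normalization, loess correction and the mean over probe sets. A difference of 2 ratios carries the error of both. With the SD of 0.90 for each that error comes to 1.28, and all of these differences were smaller. Among 1185 probe sets whose signals exceeded the size of negative signals on both arrays, to which those used here for Map2, Mapt and the 4 tubulins belong, the SD within a gene was smaller, 0.53. With it the error of a difference between 2 genes comes to 0.74. The reported differences of 1.03 were larger than this, but the SD leaves out animals and preparations. That of Map2 with the mean over probe sets, 0.66, was not larger, though this mean includes Map2 probe sets outside the 1185. Both errors are for 2 single genes, not for a difference from the median of 4 tubulins.

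Read against the background, the members did not stand out by the number past 2-fold. Of the 5 member genes with a value 1 was at least 2-fold higher, where 19.1% of the 2735 filtered genes were, and 0 reached 2-fold lower, where 14.3% did. These shares are 522 and 391 genes, and without centring they become 403 and 532. Of their 11 filtered probe sets 1 was at least 2-fold higher and 0 lower, where the shares over all 4370 filtered probe sets were 19.1% and 14.9%. The median log2 ratio of the 5 genes was 0.69, against 0.0014 over all filtered genes, with 3 above 0 and 2 below. Across the other processing choices the member median ranged from 0.18 to 0.78. It was 0.33 with the mean over probe sets, and 0.18 with both signals beyond the negative sizes, where Map1a was left out. The 1185 brighter probe sets, with the SD of 0.53, had a median ratio of -0.16. Their cut was higher on the hippocampus array, 5280 against 2913 in synaptosomes. Probe sets higher in synaptosomes were therefore left out more readily, which bears on this median and on the spread of the set. The 6 member probe sets among the 1185 were the 2 brightest of Map2, 0.69 and 0.87, the 2 brightest of Mapt, 0.70 and 0.85, Stmn1 at -0.69 and Tubb5 at -0.33. In size all but Tubb5 exceeded this smaller SD, as did 49.3% of the 1185, and all 6 lay within the middle 95% of them, -1.73 to 1.36.

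**Figure D3:**
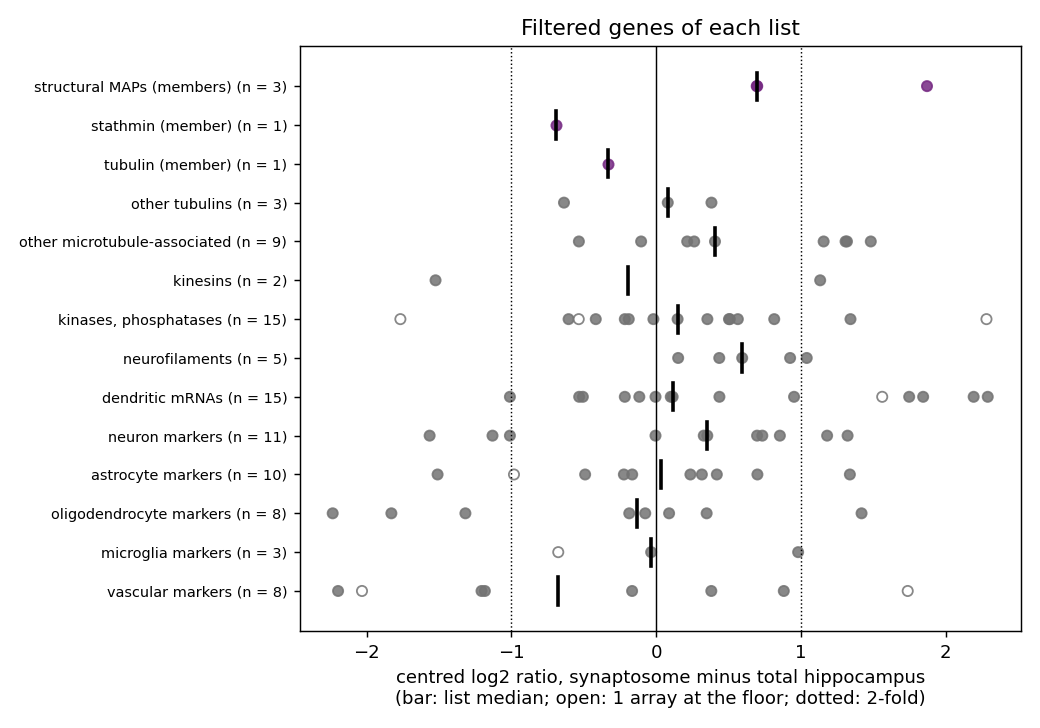
Centred log2 ratios (synaptosome minus total hippocampus) of the filtered genes of each list, with the list median as a bar. Open circles had 1 array at the floor and dotted lines mark 2-fold. All 3 filtered microtubule-associated members and all 5 filtered intermediate filament genes lie above 0, the single stathmin and the single member tubulin lie below 0, and the other lists spread to both sides.

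Further proteins that bind microtubules, tubulin dimers or motors included several with higher signals in synaptosomes. Of 37 gene symbols listed, which include older names of the same genes, 14 were on the array and 9 passed the filter. Of these 4 were past 2-fold higher and 0 past 2-fold lower, beside the 19.1% and 14.3% of all genes, with a median log2 ratio of 0.41 and 7 of 9 above 0. Crmp1, a tubulin-binding protein of the collapsin response family, read 9770 in synaptosomes and 3936 in the hippocampus, 2.79-fold higher. Map6, which makes microtubules resistant to cold, read 3641 in synaptosomes and 1644 in the hippocampus, 2.49-fold higher, and its other probe set was at the floor on both arrays. Dclk1, a doublecortin-like kinase that binds microtubules, read 6521 in synaptosomes and 2964 in the hippocampus, 2.48-fold higher. The hippocampus readings of these 3 lay within the size of negative signals. The remaining gene past 2-fold, Map1lc3a, read 16534 in synaptosomes and 8347 in the hippocampus, 2.23-fold higher. Both of its readings lay beyond that size. Mapre1, which binds growing microtubule ends, was lowest at -0.53, with 1517 in synaptosomes and 2471 in the hippocampus, and all 3 probe sets of Pafah1b1, a dynein regulator, had ratios below 0, from -0.68 to -0.10.

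Of 23 kinesin genes listed 6 were on the array and 2 passed the filter, and these went opposite ways. Klc1, a light chain of conventional kinesin, read 13895 in synaptosomes and 7132 in the hippocampus, 2.19-fold higher. Kif3c, a motor subunit, read 7455 in synaptosomes and 24114 in the hippocampus, 2.87-fold lower. The other probe sets of both gave no usable ratio.

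Enzymes that phosphorylate or dephosphorylate tau and MAP2 had a median of 0.15, with 2 of 15 filtered genes past 2-fold higher and 1 past 2-fold lower, where 19.1% and 14.3% of all genes were. Mark1, a kinase of microtubule-associated proteins, read 2829 in synaptosomes and 1256 in the hippocampus, 2.53-fold higher. Both readings lay within the size of negative signals. Ppp2r2a, a regulatory subunit of protein phosphatase 2A, read 3653 in synaptosomes and -74 in the hippocampus with 1 probe set, at least 4.86-fold higher, while another gave a log2 ratio of -0.55. Its counterpart Ppp2r2b had ratios of 0.82 and 0.26 with its 2 probe sets. Mapk8, the kinase JNK1, read 498 in synaptosomes, under the floor, and 3238 in the hippocampus, at least 3.40-fold lower. Its readings too lay within the size of negative signals. Cdk5r1, the activator of Cdk5, had a ratio of -0.60 with its brighter probe set.

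Intermediate filament genes had a median of 0.59, and 5 of 5 filtered genes had ratios above 0. They were Nefl, Nefm, Nefh and Ina, of the other filament system of axons, and Nes, or nestin, of neural progenitors. The neurofilament subunit Nefm read 11456 in synaptosomes and 6790 in the hippocampus, a log2 ratio of 0.92. Nefl read 18506 in synaptosomes and 13796 in the hippocampus, a ratio of 0.59, and 0.86 with its second probe set. Ina, or α-internexin, was 2.06-fold higher by 1 probe set, while the other gave a ratio of -0.24. The hippocampus reading of the first, 3738, lay within the size of negative signals. Nefh had a ratio of 0.15, which is below 0 without centring. Nes read 1708 in synaptosomes and 1421 in the hippocampus, a ratio of 0.44. The readings of Nes and Nefh lay within the size of negative signals. Of the 5, Ina alone passed 2-fold.

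Among 15 filtered mRNAs known from dendrites, a list that does not hold Map2, 5 were past 2-fold higher and 1 past 2-fold lower, where 19.1% and 14.3% of all genes were, with a median of 0.11. Kcna1, the potassium channel Kv1.1 named in the title of the study, read 16896 in synaptosomes and 3889 in the hippocampus with its brighter probe set, a log2 ratio of 2.29. Nrgn, or neurogranin, a postsynaptic calmodulin-binding protein, was lowest at -1.01, with 13062 in synaptosomes and 29598 in the hippocampus, while its other probe set read 15888 in synaptosomes and 20166 in the hippocampus, a ratio of -0.17. The ratio of Map2 lay between these. The hippocampus readings of all 5 genes past 2-fold higher, Kcna1 among them, lay within the size of negative signals. With both signals beyond that size, the median of the list was 0.05. That cut was higher in the hippocampus and left out genes higher in synaptosomes more readily.

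Markers of cell types were measured to check the labels and to set beside these ratios. Of 12 neuronal markers on the array 11 were above the floor on each array, and Slc17a7 was not. The 11 that passed the filter had a median log2 ratio of 0.35, with 7 above 0. Their summed signal was 188305 in synaptosomes and 258222 in the hippocampus, or 155523 in synaptosomes and 149136 in the hippocampus without Snap25, the SNARE protein with the brightest reading, which was 1.56 lower on the log2 scale. All 10 astrocyte markers on the array were above the floor in the hippocampus and 9 in synaptosomes, with summed signals of 312878 in synaptosomes and 325829 in the hippocampus, a median of 0.04 and 5 above 0. The 8 filtered oligodendrocyte markers summed to 40907 in synaptosomes and 60996 in the hippocampus, with a median of -0.13 and 3 above 0. They ran from Mbp at -2.23 to Cnp at 1.42, both named after their values were seen. The 2 brightest, Mobp and Mal, had ratios of -1.83 and -0.19, and all 4 probe sets of Mobp had ratios below 0. The 8 filtered vascular markers summed to 22053 in synaptosomes and 56998 in the hippocampus, or 15242 in synaptosomes and 21872 in the hippocampus without Hbb, a haemoglobin chain that was 4.58-fold lower. Their median was -0.67, with 3 above 0, Igfbp2 at least 3.33-fold higher among them. The 3 filtered microglial markers summed to 66017 in synaptosomes and 70989 in the hippocampus, or 10555 in synaptosomes and 7059 in the hippocampus without Ctss, with a median of -0.03. Aif1 alone of these 3 had a ratio above 0, 0.98 with its brightest probe set and 2.74 with another. The hippocampus reading of the latter, 1267, lay within the size of negative signals. Of 9 microglial markers on the array, Csf1r, Itgam and C1qc were at or under the floor on both arrays. The part of these cell types in the ratios of the microtubule genes was not tested.

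Control probe sets at the ends of long-known transcripts gave a measure of RNA and cDNA quality. The β-actin signal at the 3′ end was 7.79 times that at the 5′ end in synaptosomes and 4.96 times in the hippocampus. For GAPDH it was 1.07 times in synaptosomes and 1.05 times in the hippocampus. The part of this difference in the ratios of long mRNAs such as Map1a and Map2 was not tested.

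**Figure D4:**
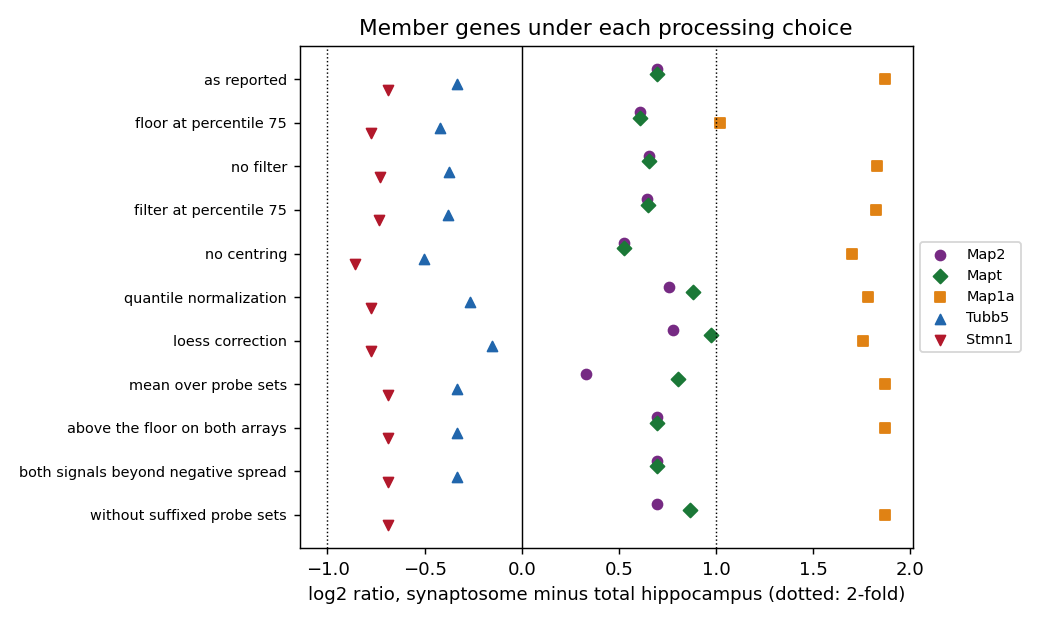
Log2 ratios (synaptosome minus total hippocampus) of the 5 member genes with a value, as reported and under each of 10 other processing choices (rows). Dotted lines mark 2-fold. Map2, Mapt and Map1a stay above 0 and Tubb5 and Stmn1 below 0 in every row that has a value for them.

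The direction of the member genes held across the processing choices. Map2 ranged from 0.33 to 0.78 and Mapt from 0.53 to 0.98, Map1a from 1.02 to 1.87, Tubb5 from -0.50 to -0.15 and Stmn1 from -0.86 to -0.69. The low end for Map2 was the mean over its 5 probe sets.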

How the data were processed

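The 2 samples were synaptosomal RNA and total hippocampal RNA, with 1 array each. Per the labels' protocols, total RNA was column-purified, SMART cDNA synthesis was primed with T7-tagged oligo(dT), and cRNA was labelled with biotin during transcription. The deposited table holds linear intensity values, whole numbers that can be negative, for 8799 probe sets, of which 59 are controls. How the scanner output was corrected and scaled is not given in the sources used here. Their mean without the lowest and highest 2% of intensities, as the authors left them, was 2500 on both arrays, so they were not rescaled.

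The floor was percentile 50 of the pooled non-control signals, and the filter the median of mean log2 levels. Where a gene had several filtered probe sets, the one with the highest mean level gave its value. Symbols came from the platform annotation; 6985 of 7006 matched a RefSeq gene identifier of rat assembly GRCr8, and 0 changed. Genes named are all members with every probe set and every filtered tubulin. Added to these were up to 3 highest and 3 lowest of each other list and up to 2 brightest of each marker list. Tubg1, Map1lc3a, Igfbp2 and the markers at the floor were named after their values were seen. Members and lists were chosen with earlier results of these data known. The scripts ran under Python 3.11.15 with pandas 2.3.3, NumPy 2.4.6, statsmodels 0.14.6, SciPy 1.17.1 and matplotlib 3.10.9 and were tested on simulated data with known ratios.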

Additional observations from a re-analysis of the deposited data

How the results depend on the processing

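No paired analysis was possible because each group has 1 array. In all, 10 alternatives were run, 9 of them planned: a floor at percentile 75, no filter, a filter at percentile 75, no centring, quantile normalization, loess correction, the mean over probe sets, no suffixed probe sets, and probe sets above the floor on both arrays. The last, signals beyond the 95th percentile of negative sizes on both arrays, was chosen after seeing the data. No result turned its sign past 2-fold, but list medians near 0 changed sign below 2-fold. That of dendritic mRNAs ranged from -0.06 to 0.56, of other tubulins from -0.28 to 0.19 and of the tau and MAP2 enzymes from -0.10 to 0.53. The astrocyte median ranged from -0.13 to 0.35 and the microglial one from -0.20 to 0.69. With signals beyond the negative sizes on both arrays, 0 member genes were at least 2-fold higher, since Map1a left the comparison. Over all genes, the 522 at least 2-fold higher became 173 with the higher floor, 202 with the stricter filter, 311 above the floor on both arrays and 59 beyond the negative sizes, and the 391 at least 2-fold lower became 136, 161, 230 and 76, with fewer genes tested in each. Higher genes made up 57.2% of genes past 2-fold as reported, 43.1% of them when centring was left out and 43.7% beyond the negative sizes. The cut at the negative sizes was higher in the hippocampus, 5280 against 2913 in synaptosomes. It therefore left out genes higher in synaptosomes more readily. The oligodendrocyte median moved to -1.18 without suffixed probe sets and the vascular median to -2.20 beyond the negative sizes. The cause was not tested. Marker sums without the gene brightest in the hippocampus were also taken after seeing the data. The Map2 minus Mapt difference ranged from -0.47 to -0.0036. With 1 array a sample, no spread between animals or preparations could be measured, and readings near the noise of negative signals limit Map1a, Map1b and the dim probe sets of Map2.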
